A study of Callorhinchus milii with 12 samples.

Results

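CG dinucleotides read the same on both DNA strands, so that each CG site holds a cytosine on either strand and each can carry a methyl group. After replication the new strand is unmethylated. In vertebrates the maintenance methyltransferase DNMT1, recruited by UHRF1 to such hemimethylated sites, copies the mark to the new strand, and most methylated CG sites are therefore methylated on both. The question here was how alike the strands are in the liver of the elephant shark Callorhinchus milii, a cartilaginous fish, at the CG sites where each strand was read often enough to be measured by itself.

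Libraries were made by post-bisulfite adapter tagging, a form of bisulfite sequencing of the whole genome in which unmethylated cytosines are converted, methylated ones are kept, and adapters are added only after the conversion. The series holds 12 libraries of liver, pancreas and spleen, taken from animals that had died in commercial fishing, with no treatment named in the labels. Only the deep-sequenced libraries, from the liver of 1 adult female and the liver of 1 adult male, hold calls at single positions. Only these were used. Pieces of tissue were used, so the values are averages over the cell types of the liver. The female library held 30080951 CG calls and the male library 38128530, where a call is 1 cytosine read in 1 read as methylated or unmethylated. There is 1 library per sex, so values have no replicate check, and intervals cover counting error or the spread over sites, not differences between animals. The files hold no molecular identifiers, so calls may not all come from independent molecules.

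Sites were chosen by position and depth and, beyond these, by the overall methylation of their scaffold, but not by their own level. With the calls of both livers added, called positions that adjoin were joined into runs. A run of exactly 2 positions, with no called position beside it, is 1 CG site, whose left position is the cytosine of one strand and whose right position is the cytosine of the other. Of 6827433 such runs, 36806 had at least 8 calls at each position. Of these, 2378 lay on the 5 scaffolds whose overall level was under 20% and were left out, which left 34428 CG sites. They are 0.504% of the runs of 2 and 0.258% of the 13354485 runs of any length. The scaffolds left out were NW_006890378.1 at 1.70%, NW_006890343.1 at 4.57%, NW_006890273.1 at 5.65%, NW_006890357.1 at 8.37% and NW_006890363.1 at 15.2%. The next scaffold above the limit, NW_006890254.1, had a level of 41.2% and 10 sites. Assembly 6.1.3 was used without its sequence or gene annotation, so no sequence is printed, and whether a site lies in a gene was not analysed here.

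The files do not give the strand of a call, but they do preserve the order in which each read lists its positions. In reads with several CG calls, all 382298 calls at left positions came from reads listed in descending order, and all 376868 calls at right positions from reads listed in ascending order. None went the other way. At 33710 of the 34428 sites, both positions had such calls. Left and right are thus separate strands, read in separate reads. A read shows 1 strand of 1 molecule. A site methylated on the left strand in some cells and on the right strand in equally many others thus has the same level on both sides. It cannot be told apart from a site that is methylated on both strands in a part of the cells.

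The sites had a median of 19 calls, from 16 to 303, with 407296 calls at left and 401353 at right positions. The female liver gave 44.9% of them. The sites lay on 325 scaffolds and in 15395 of 426584 windows of 2 kb, of which 8329 held 1 site and the fullest held 176. The limit on calls itself selects deep windows, so the next values describe the choice. Calls per called position in their windows were a median of 1.53 times the median window, against 1.22 times for the 853021 runs of 2 on the same scaffolds whose less covered position had 4 to 7 calls. Of the well-covered sites 17.4% lay in windows at 2 times the median or more, against 1.47% of the less covered ones. They had a median of 18 other called CG sites within 250 bp, against 14, a count that also depends on depth.

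The well-covered sites held more unmethylated sites than the less covered ones. Both strands together, 6843 sites (19.9%) had a level under 20%, against 9.93% of the less covered sites. A level of 80% or more was found at 17299 sites (50.2%), against 53.1%. The classes between held 1511 sites (20% to under 40%), 3022 sites (40% to under 60%) and 5753 sites (60% to under 80%). The mean was 64.7% and the median 80.0%, against 71.2% and 81.3% in the less covered sites. Well-covered sites in windows at 1 to 1.5 times the median calls per position had a mean level of 72.1%. It was 66.1% at 1.5 to 2 times, 47.0% at 2 to 4 times and 30.9% at 4 times or more. The 588 sites in windows under the median had 67.2%. The part of depth in the lower level was not tested.

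The levels of both strands were nearly the same at most sites. On the left strand the mean over sites was 64.9%, and on the right strand 64.6%. The strands had equal levels at 10662 sites, or 31.0%, where counting noise alone gives 31.1%. Most of this match is fixed by construction. The 5030 sites with methylated calls only and the 4531 with unmethylated calls only are equal in both numbers. They lay within 10 points of each other at 56.9% of the sites and within 20 points at 82.5%, with a median distance of 8.33 points. In classes of 20 points, 69.0% of the sites fell in the same class on both strands, 25.1% in classes next to each other and 5.93% further apart. Both strands were at 80% or more at 13820 sites and both under 20% at 6412. Across the 34428 sites, which share libraries and in part reads, Pearson's r of left and right levels was 0.907 and Spearman's rho 0.804. With the counting part of the variance taken off each strand, r was 0.987. An uncorrected r near 0.907 was also found between left levels of different sites, in smaller sets of sites. It was 0.934 at 2 to 30 bp apart (22095 sites), where sites can share reads. It was 0.906 at 201 to 500 bp (6950 sites), where no read can be shared. Such an r does not show that neighbours agree as closely as strands. Beyond counting noise, left levels 201 to 500 bp apart differed with an SD of 13.2 points. Between the strands, over all sites, this SD was 5.54 points.

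**Figure D1:**
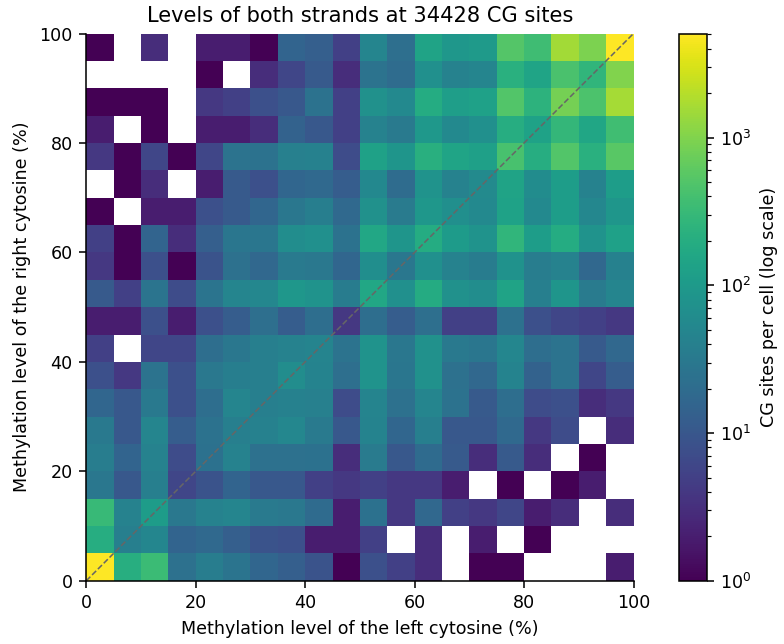
Methylation level of the left cytosine (x axis, %) against that of the right cytosine (y axis, %) at 34428 CG sites, both livers added, in cells of 5 by 5 points, with the number of sites per cell on a log colour scale, blank cells empty and the dashed line marking equal levels. The fullest cells lie in the 2 corners of the diagonal, where both strands are methylated or both are unmethylated, and the opposite corners hold few sites.

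The means of the strands differed by less than 1 point. The left level was above the right at 12107 sites and below it at 11659. The mean difference, left minus right, was 0.288 points (95% counting interval 0.132 to 0.443), with 0.193 points in the female liver (-0.0562 to 0.442) and 0.333 points in the male liver (0.120 to 0.546). The sign depended on the weighting. Over calls in place of sites, 57.1% of left calls were methylated against 57.6% of right calls. In the male liver by itself, at the 2168 sites with at least 8 calls per position in it, the mean difference was -0.179 points (-0.731 to 0.374). Of the 194 scaffolds with at least 50 sites, the left mean was higher on 113. The counting intervals of the mean difference take the sites as independent. Neighbouring sites share reads, so these intervals are too narrow.

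Strand differences were slightly wider than counting gives. For each site, the calls of both strands fix how far apart the levels should fall if both strands have 1 underlying level. The dispersion, the squared deviation divided by the hypergeometric variance and averaged over sites, is 1 for counting noise alone. Over the 24867 sites with both kinds of call it was 1.13 ± 0.0103 (SE over sites). The other sites, 5030 with methylated calls only and 4531 with unmethylated calls only, were identical on both strands and hold no information on this ratio. The difference had an SD of 15.7 points, of which counting gives 14.7 points. The part beyond counting noise had an SD of 5.54 points (95% interval over sites 5.05 to 5.99). Keeping the livers apart as strata, so that unequal shares of the livers on the 2 strands cannot enter, left the dispersion at 1.12. Neighbouring sites share reads, so the SE and intervals over sites are too narrow.

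The excess lay at large differences. Sites under 20 points apart were as frequent as counting gives or slightly rarer. Those with only 1 kind of call count as 0 points apart in both numbers by construction. At 30 to 40 points, 1545 sites were found where counting gives 1413. At 50 points or more there were 450 sites, or 1.31% of all, where counting gives 295. Between 70 and 80 points the numbers were 24 and 9.40. From 80 points on they were 14 and 1.27. In two-sided Fisher's exact tests of single sites, 603 sites had an unadjusted p of 0.05 or less where counting noise gives 325, and 45 had a p of 0.001 or less where counting noise gives 2.05.

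**Figure D2:**
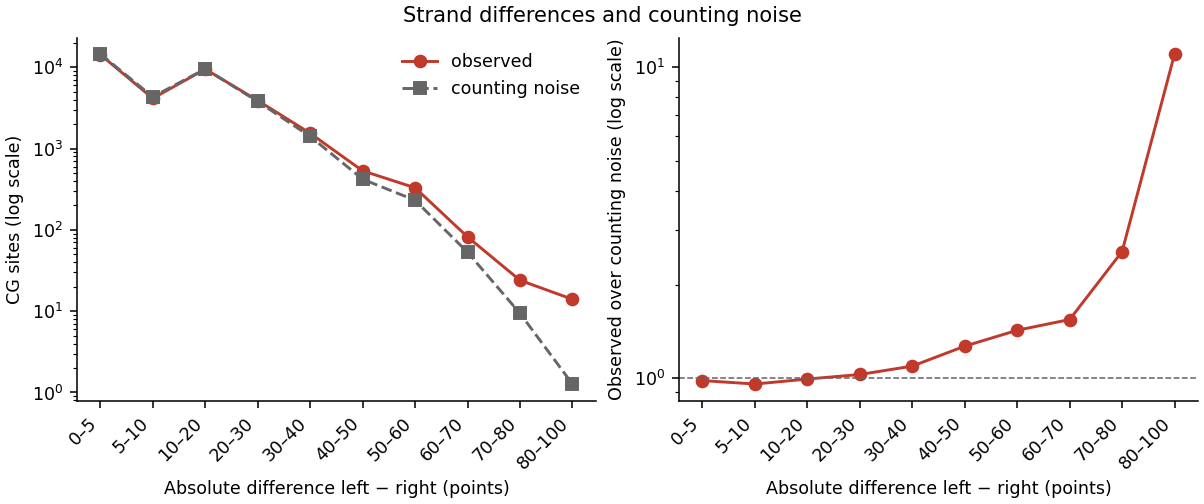
Left panel, number of CG sites (log scale) by absolute difference between the strands in points, observed (circles) and as counting noise gives it for the same calls (squares); right panel, observed over counting noise (log scale), with the dashed line at 1. The curves run together up to 30 points and part beyond, to 14 sites against 1.27 from 80 points on.

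By the pooled level of the site, the excess in points was larger in the middle classes. The strand difference helps to set this level, and strands far apart cannot give a pooled level near 0% or 100%, so these values are a description. The dispersion was 1.47 ± 0.0753 (SE) at sites of 20% to under 40%, 1.26 ± 0.0342 at 40% to under 60% and 1.17 ± 0.0213 at 60% to under 80%. It was 1.03 ± 0.00865 at sites of 80% or more and 1.15 ± 0.0536 under 20%. In points, the SD beyond counting noise was 11.8, 10.4 and 8.22 in the partly methylated classes, against 2.36 at 80% or more and 2.29 under 20%. At the 3022 sites of 40% to under 60%, both strands lay between 20% and 80% at 2896, or 95.8%. Only 17 of them, 0.563% (95% Wilson interval 0.352% to 0.899%), were methylated at 80% or more on one strand and under 20% on the other, where counting noise gives 6.20. This interval takes the sites as independent. Both strands were at 40% to under 60% at 723 of the sites. A pooled level in this class thus seldom came from a strand at 80% or more and a strand under 20%.

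Depth moved with the excess. The SD beyond counting noise was 4.33 points (2.93 to 5.38) at sites with 16 or 17 calls, 4.86 points (3.73 to 5.78) at 20 to 23, 8.77 points (7.55 to 9.84) at 24 to 29, 10.1 points (8.70 to 11.4) at 30 to 49 and 9.28 points (7.61 to 10.7) at 50 or more. The deepest class held 1334 sites, whose mean level was 31.7%. The SD was also larger where the strands had unequal calls. It was 4.41 points (3.59 to 5.10) where the more covered strand had under 1.25 times the calls of the other. It was 10.7 points (8.82 to 12.3) at 2 to 3 times and 13.0 points (9.89 to 15.5) at 3 times or more. With at least 8 calls on each strand, only sites with many calls can have very unequal strands. These classes are thus also classes of depth by construction. Their median calls per site were 17, 31 and 52, in the same order, and their mean levels fell. Imbalance is therefore no second result beside depth here, and the parts of calls, level and imbalance were not separated. The mean of the more covered minus the less covered strand was 0.241 ± 0.131 points (counting SE) at under 1.25 times with unequal calls, 0.125 ± 0.157 at 1.25 to 1.5 times, -0.186 ± 0.212 at 1.5 to 2 times, -0.655 ± 0.392 at 2 to 3 times (1096 sites) and -0.912 ± 0.583 at 3 times or more (481 sites). The mean was below 0 in the most unequal classes, by less than 2 SE in each, and the classes were not tested together. These SE cover counting only and leave out the 10.7 and 13.0 points beyond it, so they are too small. No direction was thus shown by these means. Counts of sites did not follow these means. At 2 to 3 times the more covered strand was lower at 455 sites and higher at 450. At 3 times or more it was lower at 193 and higher at 232. By calls per position in the window, the SD was 4.34 points at 1 to 1.5 times the median, 5.57 points at 1.5 to 2 times, 8.13 points at 2 to 4 times and 7.57 points at 4 times or more. The part of depth and imbalance in the strand differences was not tested.

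The excess was smallest in the class with the densest CG sites, but it did not fall evenly with density. By the number of other CG sites within 250 bp, the SD beyond counting noise was 7.67 points (3.46 to 10.3) at 0 to 4, 5.62 points at 5 to 9, 6.53 points at 10 to 19, 4.76 points at 20 to 39 and 2.84 points (0.858 to 3.92) at 40 or more. In the same order, the dispersion was 1.15 ± 0.0595 (SE), 1.09 ± 0.0226, 1.16 ± 0.0175, 1.12 ± 0.0167 and 1.06 ± 0.0273. The mean level of the 4382 sites in the densest class was 22.7%, against 63.0% for the 673 sites in the sparsest. By the level of their surroundings, the SD was 2.25 points (1.38 to 2.86) where the rest of the 2 kb window was under 20% and 9.52 points (8.06 to 10.8) where it was at 40% to under 60%. These classes differ in level as well as in density, and their parts were not separated.

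Comparisons between the animals and between sequencing lanes put the strand difference in scale. At 11883 sites, each position had at least 4 calls in each liver. There, left against right had an SD beyond counting noise of 6.69 points (5.37 to 7.78) in the female liver and 6.77 points (5.58 to 7.78) in the male liver. Female against male differed by 8.64 points (7.61 to 9.57) on the left strand and 9.40 points (8.41 to 10.3) on the right, and the female mean was the lower by -1.64 points on the left and -1.65 points on the right. In points, the strands of 1 animal thus differed by less than the same strand in both animals, but the intervals overlap in part and the difference was not tested. In dispersion this order was not kept throughout, with 1.11 ± 0.0156 (SE) between the strands in the female liver and 1.15 ± 0.0189 in the male, against 1.15 ± 0.0148 between the animals on the left strand and 1.17 ± 0.0151 on the right. The sequencing lanes of 1 library were compared at other positions, those with at least 4 calls in each lane, which were fewer and had lower levels. At the 3450 positions of the female library, with a mean level of 39.4% in lane 1, the dispersion was 0.972 ± 0.0283, and at the 5737 of the male library, with a mean of 50.7%, it was 0.994 ± 0.0198. The SD beyond counting noise was -5.58 points (-7.28 to -3.07) for the female and -3.78 points (-5.76 to 2.15) for the male library, where a minus sign marks a variance below counting noise. The female lanes thus differed by less than counting gives on this measure, and the cause was not tested.

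**Figure D3:**
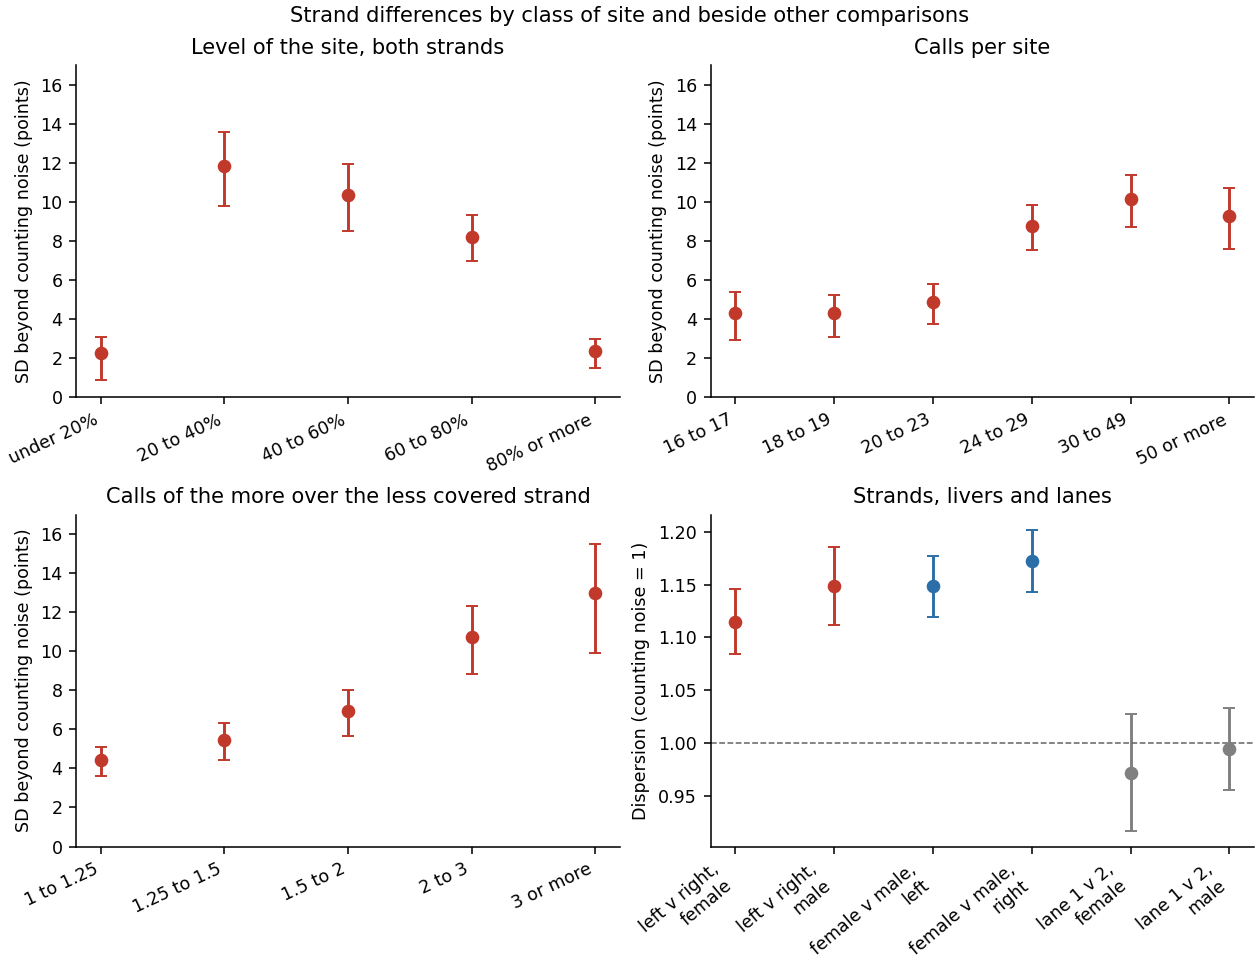
SD of the strand difference beyond counting noise in points, with 95% intervals over sites, by level of the site, calls per site and ratio of calls between the strands, and, at the lower right, dispersion with 95% intervals for left against right, female against male and lane against lane, where the dashed line at 1 is counting noise. Sites in the middle classes of level, sites from 24 calls on and sites with unequal strands lie highest, and the intervals of both lane comparisons include 1.

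Part of the strand difference recurred in both animals. Reads of the libraries are separate, so counting noise adds nothing to the covariance of the female and male differences. Over the 11883 sites this covariance was above 0, and its square root was 6.24 points (95% interval over sites 5.34 to 7.02), close to the SD within each liver. The correlation of the differences was only 0.0925, since counting noise makes up most of each. Of the 31 sites with an unadjusted Fisher p of 0.01 or less in the female liver, 25 differed in the same direction in the male, 5 in the opposite one and 1 not at all. Along the female direction, the mean difference was 72.5 points in the female, in which the sites were picked, and 31.9 points in the male. Of 42 such sites in the male liver, 35 went the same way in the female, 6 the other way and 1 did not differ, with mean differences of 64.1 points in the male and 29.4 points in the female. Neighbouring sites can share reads, so the sites in these counts are not all independent. The numbers that counting noise gives were not computed for them.

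The strand differences of neighbouring sites were correlated mainly within the length of a read. No read spanned more than 89 bp between its first and last CG call. For pairs of sites 2 to 30 bp apart, the correlation of left minus right was 0.322 over 24505 pairs, and 0.162 over 16654 pairs at 31 to 89 bp. Such sites can share reads. The correlation was 0.0273 over 12049 pairs at 90 to 200 bp, 0.0175 at 201 to 500 bp and -0.0136 at 501 to 2000 bp, where no read can be shared. The left levels themselves were still correlated at 0.921 for pairs 90 to 200 bp apart. Levels of these pairs differed with an SD beyond counting noise of 11.7 points on the left strand and 11.3 on the right. Between the strands of 1 site it was 5.54 points, over all 34428 sites.

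Single sites were tested by Fisher's exact test with Benjamini-Hochberg adjustment over all 895155 runs of 2 with at least 4 calls at each position. With equal calls on both strands, this is the least depth at which a two-sided p under 0.05 is possible. Of these runs, 0.000559% were called at an adjusted p of 0.05 or less, 0% with the left strand higher and 0.000559% with the right higher. The 5 called sites were all well-covered ones, 5 of 34428. Depth largely sets this. In Fisher's test 4 calls against 4 cannot give an unadjusted p under 0.0286, and 8 against 8 cannot give one under 0.000155. Both are far above the 3.35e-07 that 1 more called site would have needed. How many less covered runs could have reached it was not counted. The 5 called sites are thus no comparison of well-covered with less covered sites. At an unadjusted p of 0.05 or less, 310 well-covered sites had the left strand higher and 293 the right. Depth also limits how many of the well-covered sites were called. One more site would have needed a p of 3.35e-07, which only 4426 of the sites (12.9%) could have reached with the strands wholly apart. Adjusted over the runs with at least 8 calls at each position alone, 7 sites were called, and 2 of them had the left strand higher.

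The called sites formed 3 groups. On NW_006890057.1 at 1717994 to 1717995 (positions of assembly 6.1.3), the left cytosine was methylated in 0 of 46 calls, 0 of 23 in each liver, and the right cytosine in 8 of 8, 4 of 4 in each liver (Fisher's exact test, adjusted p = 0.000172). The count of 0 allows a left level of up to 7.71% (Wilson). The only other CG site within 200 bp that had enough calls, at 1717975, was also low on the left (1 of 14 calls) and high on the right (8 of 9). Both sites thus lean the same way in reads that they may share. The right strand was the less covered one at both.

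On NW_006890355.1, 3 called sites stood at the very start of the scaffold. At 135, 151 and 167, the left cytosine was methylated in 0 of 50, 0 of 47 and 2 of 41 calls, and the right cytosine in 17 of 21, 15 of 20 and 17 of 20 (adjusted p = 2.59e-07, 1.34e-05 and 7.10e-05 in Fisher's exact test). Both livers contributed to each. At 135, 0 of 22 left calls were methylated against 4 of 6 right calls in the female liver, and 0 of 28 left calls against 13 of 15 right calls in the male liver. The sites are 16 bp apart, and a further site 16 bp on, at 183, had 3 of 26 left and 15 of 21 right calls methylated. Sites between them, at 128, 144, 160, 176 and 192, also 16 bp apart, had left levels of 21.6%, 40.8%, 56.5%, 77.5% and 62.5%. On the right strand all 9 sites lay between 71.4% and 85.0%. Left levels therefore alternated from site to site while right levels did not. The window had 5.56 times the median calls per position.

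On NW_006890058.1 at 3764938 to 3764939, the left cytosine was methylated in 1 of 124 calls and the right one in 33 of 55 (adjusted p = 3.09e-14, Fisher's exact test), with 1 of 60 left against 9 of 22 right calls from the female liver and 0 of 64 left against 24 of 33 right calls from the male liver. The CG site 3 bp before it, near enough to be read by the same reads, had 73 of 120 left and 48 of 63 right calls methylated, so the low left level did not extend to it. The neighbours within 200 bp were mostly 30 bp apart, and other than the called site their left levels lay between 23.1% and 70.5% and their right levels between 41.4% and 86.5%. This window had 9.93 times the median calls per position. Of the 7 scaffolds with at least 500 sites it was the only one with a called site, 1 of 563.

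**Figure D4:**
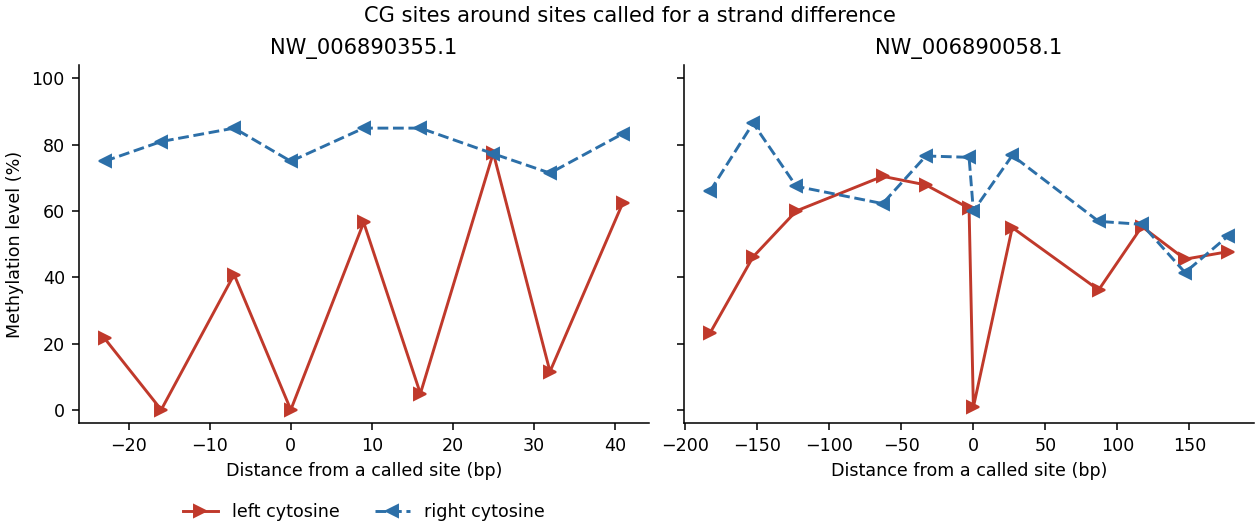
Methylation level (%) of the left (solid) and right (dashed) cytosine of CG sites with at least 4 calls at each position, both livers added, by distance in bp from a called site on NW_006890355.1 (left panel) and NW_006890058.1 (right panel). On NW_006890355.1 left levels alternate between neighbouring sites while right levels stay between 71.4% and 85.0%, and on NW_006890058.1 a single site falls to 0.806% on the left strand.

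In all 5 called sites the left, lower strand had more calls than the right, and 4 of them lay in windows at 2 times the median calls per position or more, with the fifth at 1.97 times. The 5 sites lay in only 3 windows. Those on NW_006890355.1 are near enough to share reads, so they are not independent. The 2 further sites called with the smaller adjustment lean the other way. On NW_006890059.1 at 9835847, 7 of 10 left and 0 of 38 right calls were methylated, so that the lower strand again had the more calls. On NW_006890139.1 at 1073703, 12 of 12 left and 0 of 8 right calls were methylated. Its neighbours at 1073690 and 1073713 had 6 of 6 and 10 of 12 left calls methylated and 8 of 8 right calls each. Among these, only the site between them had no methylated right call.

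Hemimethylated sites, with at least 80% on one strand and under 20% on the other, were rare. There were 24 of them, 0.0697% of the sites (95% Wilson interval 0.0469% to 0.104%), where counting noise gives 6.39. The interval takes the sites as independent, but some lie near enough to share reads, so it is too narrow. The left strand was the methylated one at 14 and the right at 10. Each of the 24 had calls on both strands in both livers, and all leaned the same way in both, although the pooled calls that define them include those of each liver. They lay on 18 scaffolds and had medians of 9.50 left calls and 10 right calls. Their windows had levels between 43.0% and 88.1%, with a median of 70.8%, and a median of 1.68 times the median calls per position. The unmethylated strand had more calls at 11 of them, the methylated strand at 7, and 6 had equal calls. The term hemimethylated describes the calls only. Whether the sequence of the animals differs from the assembly at these sites, or at the called ones, was not tested.

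Some of these sites had their strands wholly apart. On NW_006890109.1 at 831139 to 831140, 8 of 8 left calls were methylated, against 0 of 11 right calls. The female liver gave 3 of these left calls and 5 of the right, and the male liver 5 and 6. The site on NW_006890139.1 described above had 5 of 5 left calls methylated in the female liver, against 0 of 2 right calls, and 7 of 7 left calls in the male liver, against 0 of 6 right calls. With limits of 90% and 10% these and the site on NW_006890057.1 were the 3 that remained, where counting noise gives 0.0981. In 4 cases the next hemimethylated site was within 89 bp, and each time it leaned the same way, as at 160721 and 160762 on NW_006890247.1, where 12 of 12 and 8 of 10 left calls were methylated against 1 of 10 right calls each. Most hemimethylated sites did not pass the adjusted test, as 8 calls against 8 cannot give a p under 0.000155, and only 3 of the 24 were among those called.

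**Figure D5:**
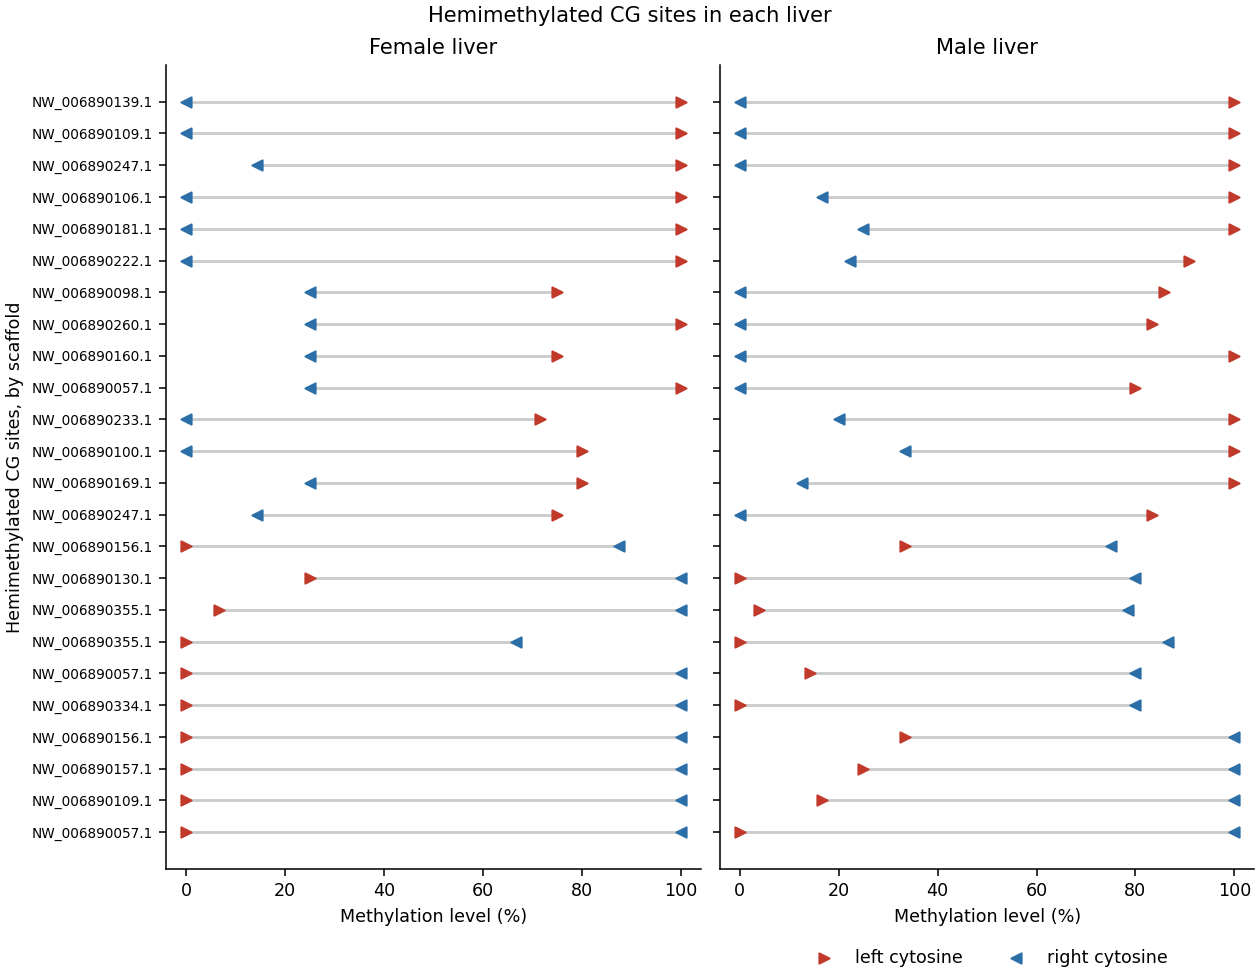
Methylation level (%) of the left (red) and right (blue) cytosine at the 24 hemimethylated CG sites in the female liver (left panel) and the male liver (right panel), 1 row per site, labelled by scaffold and ordered by left minus right. In every row both livers lean the same way, 14 sites with the left strand methylated and 10 with the right. The sites were picked by the added calls of both livers, a choice that itself favours such agreement.

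Sites just outside and just inside the limit of 8 calls had similar values. Those whose less covered position had 7 calls numbered 46110 and had a dispersion of 1.05 ± 0.00644 (SE) and an SD beyond counting noise of 4.45 points. Those with 8 calls numbered 19084 and had 1.07 ± 0.0112 and 4.94 points. Over all sites with 4 to 7 calls the SD was 5.16 points (4.96 to 5.35). The excess variance of the well-covered sites minus that of these sites was 4.08 squared points, with a 95% interval of -1.51 to 9.66. No difference was thus shown in points. The dispersion did differ, with 1.04 ± 0.00146 (SE) at 4 to 7 calls against 1.13 ± 0.0103 at the well-covered sites. Counting gives an SD of 22.1 points at the former and 14.7 at the latter, so the measures need not move together. On the scaffolds under 20% that were left out, the SD beyond counting noise was 1.25 points (-2.13 to 2.77). At the 906 runs of exactly 4 positions, in which 2 CG sites stand side by side, it was 6.01 points (3.84 to 7.59), an interval that overlaps that of the well-covered sites.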

How the data were processed

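As the study's methods describe it, reads were trimmed by the authors (Trim Galore 0.4.0), cut by 10 bp at their 5' ends, aligned with Bismark 0.14.3 to scaffolds of assembly 6.1.3 over 277 kb and freed of duplicates before CG calls were extracted. The deposited call files of the deep-sequenced livers list 1 call per line, with scaffold and position but no strand. The mapping reports of the other 10 libraries hold no positions and were not used.

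Calls were counted per position, liver, lane and order within the read, with Python 3.11.15, NumPy 2.4.6, SciPy 1.17.1, numba 0.67.0 and Matplotlib 3.10.9. Counting noise is the hypergeometric distribution of methylated calls between strands given the calls of a site. The SD beyond counting noise is the root of the mean squared difference less the unbiased binomial variance. Tests were two-sided Fisher's exact tests with Benjamini-Hochberg adjustment. Functions were tested on simulated data. Alternatives were other call minimums, each liver alone, livers as strata, all scaffolds, limits on coverage, strands checked by read order, longer runs, no single-call reads, 1 lane, and other adjustments and limits. Sites named were the called ones with at least 4 calls per position in each liver and 1 direction, up to 6 per direction. Sites, classes and tests were chosen with earlier results of these data known. The bins of depth, imbalance, density and surroundings, the neighbourhoods, and the hemimethylated and further called sites named one by one were chosen after their values were seen.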

Additional observations from a re-analysis of the deposited data

How the results depend on the processing

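The mean left minus right turned to -0.179 points in the male liver alone. The direction of the called sites, all right higher, was not kept with adjustment over runs of 8 calls, where 2 of 7 were left higher, and had no value where 0 were called. The number of sites and the depth changed with most alternatives, and the cause of each shift was not tested. A minimum of 6 calls gave a dispersion of 1.07, an SD beyond counting noise of 4.88 points, a mean difference of 0.122 points and 411 hemimethylated sites, where counting noise gives 299.96. A minimum of 12 gave 1.51, 8.69 points, 3 hemimethylated sites and a difference shared by both livers of 8.06 points. In the female liver alone the dispersion was 1.25, the SD 7.56 points, with 0 called and 2 hemimethylated sites. In the male liver alone these were 1.42, 9.44 points, 3 and 2. Only 1428 and 2168 sites had enough calls in 1 liver. Sites of at most 30 calls gave 1.08, 4.98 points, 5.10 points shared and 0 called. Windows under 2 times the median coverage gave 1.08, 4.88 points, 5.34 points shared and 1 called. The first lane alone gave 1.11, 7.22 points shared and 61 hemimethylated sites (counting noise 44.8). Limits of 90% and 10% gave 3 hemimethylated sites, and limits of 70% and 30% gave 178 (counting noise 112). With 6 calls at each position in each liver, 7.31 points were shared. No paired analysis was possible because the deep-sequenced groups hold 1 library each and the libraries that share more replicate numbers give no calls by position.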
